A study of Arabidopsis thaliana with 12 samples.

Results

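The genes described are 35 Arabidopsis thaliana loci that act in mitosis and cytokinesis, chosen by name from a fixed list of locus identifiers. The choice used no cutoff on measured values but was made with earlier results of these data known. The list holds A-type and B2 cyclins, CKS subunits, Aurora kinases with TPX2, spindle checkpoint proteins, condensin subunits, spindle motors and microtubule proteins, and proteins of the phragmoplast. All 35 were found among the 33602 loci counted, and all 35 were among the 19924 loci that passed the filter on low counts. Polyadenylated RNA of whole seedlings was sequenced in 12 libraries of 4 genotypes with 3 libraries each. All plants were of ecotype Col-0, were taken at stage 1.02 of the Boyes scale, and grew untreated on 0.5x MS medium at 20 °C and 65% humidity with 16 h of light. The genotypes were wild-type Col-0, DPB2oe12.1.5 and DPB2oe1.11.5, which overexpress DPB2, a regulatory subunit of DNA polymerase epsilon, and abo4-1, an allele of the gene for its catalytic subunit, POL2A, which the series calls a knock-out. The genotype label of DPB2oe1.11.5 was followed where sample titles end the line's name in a different digit. The sources used here do not give the promoter that drives DPB2 in the lines or the hour of harvest, and each overexpressor is 1 line.

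A plant cell enters mitosis when cyclins activate cyclin-dependent kinases, to which CKS proteins bind as small docking subunits. Aurora kinases, TPX2, kinesins and MAP65 bundling proteins then build the spindle, condensin compacts the chromosomes, and checkpoint proteins hold back anaphase until chromosomes are attached. Plant cells divide by building a cell plate outward along the phragmoplast, a microtubule array that needs its own kinesins, MAP65-3 and the syntaxin KNOLLE. Many of these genes are transcribed together in late G2 and M phase through the mitosis-specific activator element, which is bound by MYB3R transcription factors.

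The libraries held 10902547 to 29456111 counted reads, and a member had between 6 and 1013 counts in a library, with a median of 198. DPB2 measured 106 to 118 CPM (counts per 1000000 counted reads, scaled by TMM) in the libraries of both overexpressor lines and 1.76 to 4.53 CPM in all others, which matches the labels. POL2A transcript was 24.1 to 26.4 CPM in abo4-1 and 15.7 to 17.4 CPM in Col-0, and does not check the abo4-1 label, since an allele need not change its transcript level. LHY, a morning gene of the circadian clock, was at 173 to 217 CPM in 4 libraries, namely DPB2oe1.11.5 replicate 2, DPB2oe12.1.5 replicates 1 and 2 and abo4-1 replicate 2, and at 3.97 to 48.1 CPM in the other 8. No Col-0 library was among these 4, which are called the high-LHY libraries here. Nothing in the labels says that the replicates came from separate cultures, so p-values measure only the spread between libraries.

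The summed level of the 35 genes was 399, 423 and 419 CPM in the 3 Col-0 libraries in replicate order. It was 617, 618 and 601 CPM in abo4-1, 617, 454 and 646 CPM in DPB2oe1.11.5, and 480, 468 and 406 CPM in DPB2oe12.1.5. The abo4-1 libraries lay close together and above every Col-0 library, DPB2oe1.11.5 replicate 2 stood well below its 2 sister libraries, and DPB2oe12.1.5 replicate 3 lay inside the Col-0 range. In whole-seedling RNA, a different number of dividing cells and a different amount of RNA per cell cannot be told apart. Counted gene by gene, 34, 33 and 32 of the 35 genes lay above all 3 Col-0 libraries in abo4-1 replicates 1, 2 and 3. The same count was 32, 19 and 33 in DPB2oe1.11.5 and 23, 18 and 9 in DPB2oe12.1.5. In DPB2oe12.1.5 replicate 3, 12 genes lay below all Col-0 libraries. A single library can fall outside the range of 3 others by spread alone. The share of all loci outside the Col-0 range in single libraries was not computed, so these per-library counts lack a background.

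**Figure D1:**
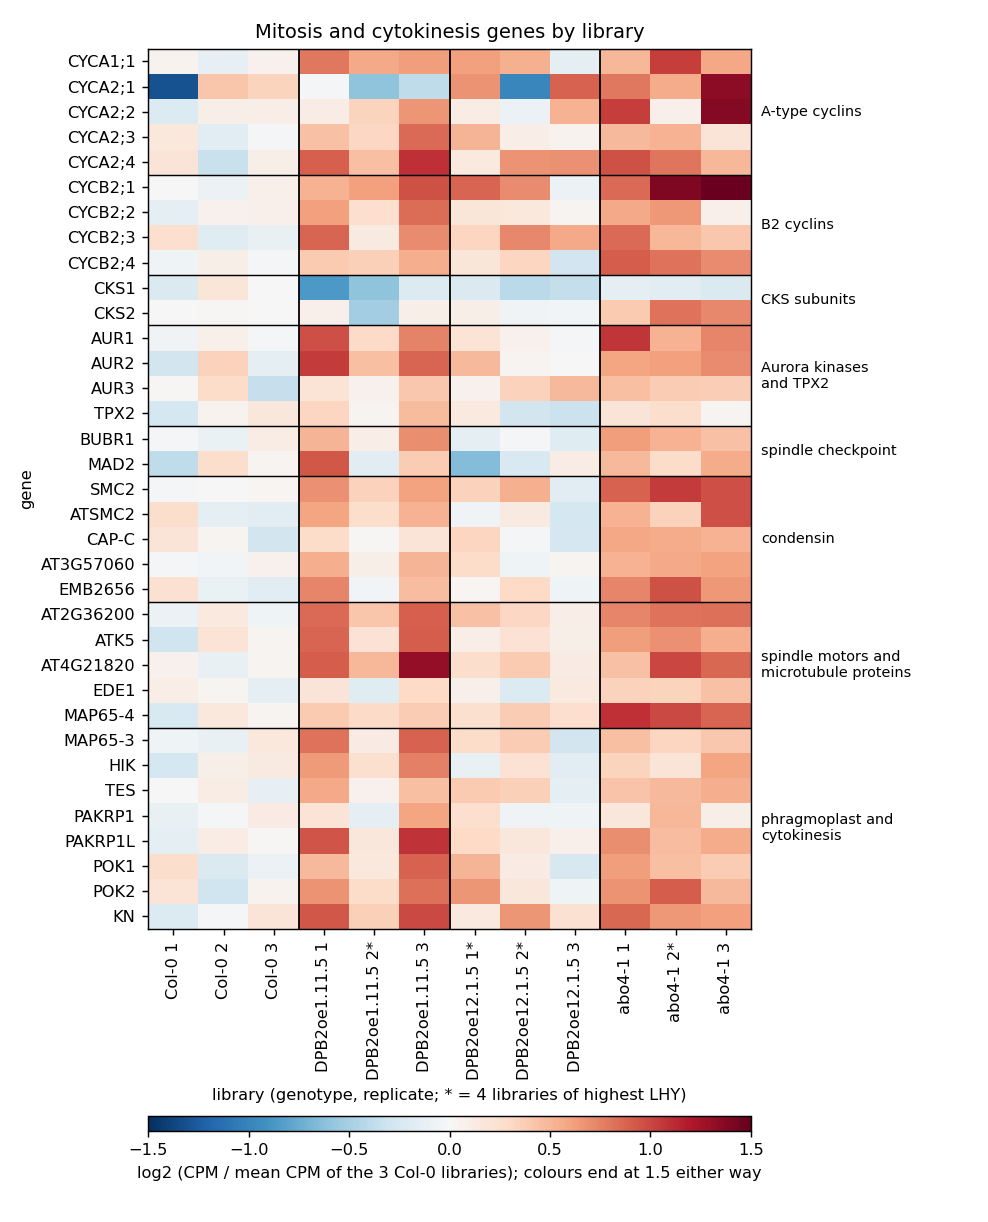
Level of each of the 35 genes (rows, by role) in each of the 12 libraries (columns), as log2 of CPM over the mean CPM of the 3 Col-0 libraries; asterisks mark the 4 high-LHY libraries. The 3 abo4-1 columns are red for nearly every gene except CKS1, DPB2oe1.11.5 replicate 2 is paler than replicates 1 and 3, and DPB2oe12.1.5 replicate 3 is close to white.

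Per kilobase of the transcript length given in the deposited files, the 2 CKS genes were the most abundant members in Col-0, CKS1 at 64.4 and CKS2 at 36.9 CPM per kb. KNOLLE (KN), the syntaxin that fuses vesicles into the cell plate, followed at 22.2 CPM per kb, and the Aurora kinase gene AUR1 at 11.6 CPM per kb. The least abundant were the B2 cyclin gene CYCB2;1 at 1.03 and the A-type cyclin gene CYCA2;1 at 0.612 CPM per kb. CYCA2;1 rested on few counts and spread widely, with 0.326, 1.076 and 1.01 CPM in the 3 Col-0 libraries, so that its fold changes carried the widest intervals of the set.

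Promoter sequence is shown for MAP65-4, the member with the lowest p-value in abo4-1, and for the 4 B2 cyclin genes, because the core of the mitosis-specific activator element recurs in all of them but CYCB2;4. Each line gives the 180 bases before the annotated gene start in the RefSeq TAIR10.1 assembly, 5′ to 3′ on the strand of the gene, with capitals marking the core AACGG or its reverse complement CCGTT. The windows lie at chr3:22480981-22481160 on the minus strand for MAP65-4, chr2:7663875-7664054 on the plus strand for CYCB2;1, chr4:16901416-16901595 on the plus strand for CYCB2;2, chr1:7137829-7138008 on the minus strand for CYCB2;3 and chr1:28630790-28630969 on the minus strand for CYCB2;4.
MAP65-4: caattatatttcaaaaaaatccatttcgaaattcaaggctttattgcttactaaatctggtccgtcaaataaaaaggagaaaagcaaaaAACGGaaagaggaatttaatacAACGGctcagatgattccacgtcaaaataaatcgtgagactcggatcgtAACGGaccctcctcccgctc
CYCB2;1: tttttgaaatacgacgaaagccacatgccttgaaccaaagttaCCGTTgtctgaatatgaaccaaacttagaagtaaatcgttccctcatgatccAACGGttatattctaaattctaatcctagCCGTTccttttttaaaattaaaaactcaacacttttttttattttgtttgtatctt
CYCB2;2: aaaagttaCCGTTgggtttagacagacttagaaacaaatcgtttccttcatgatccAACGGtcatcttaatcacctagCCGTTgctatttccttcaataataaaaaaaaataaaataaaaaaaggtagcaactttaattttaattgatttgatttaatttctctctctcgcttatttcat
CYCB2;3: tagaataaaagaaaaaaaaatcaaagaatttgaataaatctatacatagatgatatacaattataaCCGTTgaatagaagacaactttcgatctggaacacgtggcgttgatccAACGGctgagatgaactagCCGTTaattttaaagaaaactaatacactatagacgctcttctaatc
CYCB2;4: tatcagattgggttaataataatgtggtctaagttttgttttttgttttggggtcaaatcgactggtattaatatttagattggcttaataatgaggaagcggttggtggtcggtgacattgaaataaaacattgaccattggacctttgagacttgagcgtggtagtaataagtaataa
The cores of MAP65-4 all read AACGG on the strand of the gene, at 91, 69 and 20 bases before its start. In CYCB2;1, CYCB2;2 and CYCB2;3 the order is the same, CCGTT first, then AACGG, then CCGTT, at 137, 85 and 56 bases, 172, 124 and 102 bases, and 114, 66 and 47 bases before the start. In these 3 genes the middle core sits in the 10 bases GATCCAACGG, a string seen after the sequences were aligned by their cores, which occurs in 65 (0.243%) of 26707 windows of 250 bases before protein-coding genes, on either strand. CYCB2;4 holds no core in its 250 bases.

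Searched on both strands in the 250 bases before each gene, AACGG was found in 19 of the 35 members (54.3%) and in 5510 of all 26707 windows (20.6%). Windows with 2 or more cores were 10 of 35 (28.6%) and 968 of 26707 (3.62%). By role, the core was in 7 of 8 phragmoplast genes, 3 of 4 B2 cyclin genes, 3 of 4 genes of the Aurora and TPX2 set, 2 of 5 A-type cyclin genes, 2 of 5 condensin genes, 1 of 2 checkpoint genes, 1 of 5 spindle motor and microtubule genes, and neither CKS gene. Of the 34 cores, 27 lay within 150 bases of the gene start, a stretch that makes up most of the 250 bases searched. The same share was not computed over all windows. The motif CTTNNNNNNNAAG, bound by the damage-response factor SOG1, was in 4 members (11.4%) and in 9.68% of all windows. In 8 members the window overlapped another annotated gene.

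**Figure D2:**
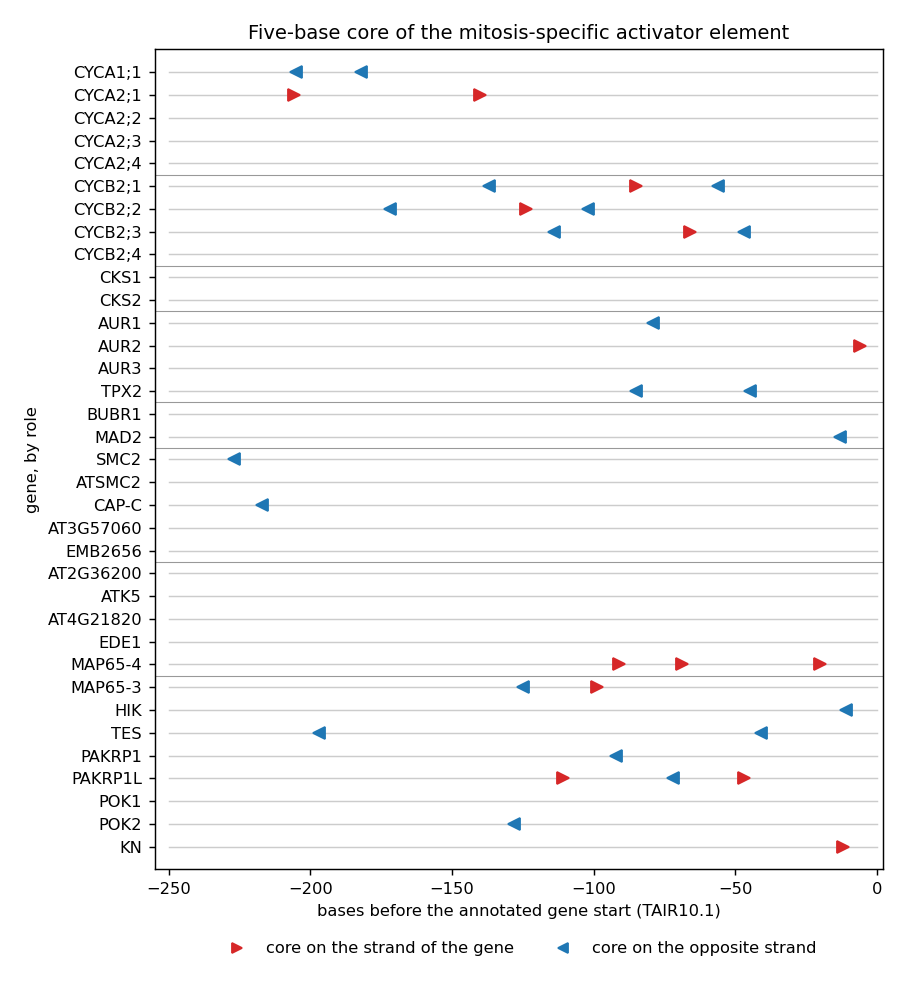
Position of each AACGG core (triangles) in the 250 bases before the annotated start of each of the 35 genes (rows, by role), with the x axis in bases before the start; red triangles point right for the strand of the gene and blue ones left for the opposite strand. The 3 B2 cyclin genes with cores share 1 order of strands. Of the 34 cores, 27 lie within the nearest 150 of the 250 bases, a share not computed over all windows.

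The first question was how seedlings with the POL2A allele differ from wild type. The genes that rose in abo4-1 were of 4 kinds: the microtubule bundler MAP65-4, the condensin gene SMC2, AT2G36200, listed among the mitotic kinesins, and the B2 cyclin gene CYCB2;4. These 4 of 35 members (11.4%) passed edgeR's quasi-likelihood test with Benjamini-Hochberg adjustment over all loci (adjusted p under 0.05), against 0.567% of all loci tested called higher. No member was lower by that test, by DESeq2 or at an unadjusted p under 0.05 (0 members each), against 0.216% of all loci by the test and 3.47% at an unadjusted p under 0.05. An unadjusted p under 0.05 with a higher level was found for 27 members (77.1%), against 4.65% of all loci, and all 3 abo4-1 libraries lay above all 3 Col-0 libraries for 31 members (88.6%), against 8.13% of all loci. The median log2 fold change over the 35 members was 0.62, with 34 above 0 (97.1%; 50.2% of all loci), and the median over all loci was 0.00.

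MAP65-4 (AT3G60840, chr3:22477573-22480980), which bundles spindle microtubules, measured 6.74, 8.81 and 8.08 CPM in Col-0, 16.8, 15.6 and 14.4 CPM in abo4-1, 9.32, 10.3 and 9.36 CPM in DPB2oe12.1.5, and 10.3, 9.58 and 10.3 CPM in DPB2oe1.11.5. The lowest abo4-1 library was well above the highest library of any other genotype, and both overexpressor lines lay between Col-0 and abo4-1 without overlap. Its log2 fold change in abo4-1 was 1.00 ± 0.15 (SE; adjusted p = 0.00507), from 7.87 ± 1.05 CPM to 15.6 ± 1.21 CPM (SD, n = 3). This call held with any 1 of the 6 libraries left out, at adjusted p of 0.0156 to 0.0375.

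SMC2 (AT5G62410, chr5:25056025-25062670) encodes an ATPase subunit of condensin. Its levels were 14.2, 14.5 and 14.8 CPM in Col-0, 26.8, 30.0 and 28.4 CPM in abo4-1, 18.4, 20.9 and 13.03 CPM in DPB2oe12.1.5, and 23.3, 18.4 and 22.0 CPM in DPB2oe1.11.5. The Col-0 libraries were nearly equal, abo4-1 lay above every other library, and DPB2oe12.1.5 straddled Col-0. In abo4-1 it rose by a log2 fold change of 0.97 ± 0.17 (adjusted p = 0.0147). The call was lost without abo4-1 replicate 2 or 3 or without any 1 Col-0 library (adjusted p 0.0639 to 0.0841) and held without abo4-1 replicate 1 (0.0448). Its close copy ATSMC2 (AT3G47460), for which reads shared by both genes were removed before counting, had a lower log2 fold change of 0.62 ± 0.21 and was not called (adjusted p = 0.336).

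AT2G36200 (chr2:15179817-15185405) was read at 17.9, 21.1 and 18.2 CPM in Col-0, 31.7, 33.5 and 34.0 CPM in abo4-1, 26.0, 23.7 and 20.4 CPM in DPB2oe12.1.5, and 34.4, 25.5 and 35.5 CPM in DPB2oe1.11.5. All libraries of abo4-1 and of DPB2oe1.11.5 were above Col-0, while DPB2oe12.1.5 replicate 3 fell inside the Col-0 range. In abo4-1 the log2 fold change was 0.80 ± 0.15 (adjusted p = 0.0284), and the call was lost when any 1 of the 6 libraries was left out (adjusted p 0.0739 to 0.158).

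CYCB2;4 (AT1G76310, chr1:28627694-28630789), a B2 cyclin that partners mitotic kinases, stood at 7.39, 8.22 and 7.54 CPM in Col-0, 14.5, 13.5 and 12.6 CPM in abo4-1, 8.76, 9.65 and 6.32 CPM in DPB2oe12.1.5, and 10.095, 9.87 and 11.3 CPM in DPB2oe1.11.5. The abo4-1 libraries again exceeded all others, and DPB2oe1.11.5 exceeded Col-0 without overlap. Its log2 fold change in abo4-1 was 0.81 ± 0.17 (adjusted p = 0.0432). That call was lost without any 1 of the 6 libraries (adjusted p 0.105 to 0.207) and without the high-LHY libraries (0.0607). It was also lost with no filter on low counts (0.0504), in the 2-group fit (0.066) and with the replicate block (0.0651).

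**Figure D3:**
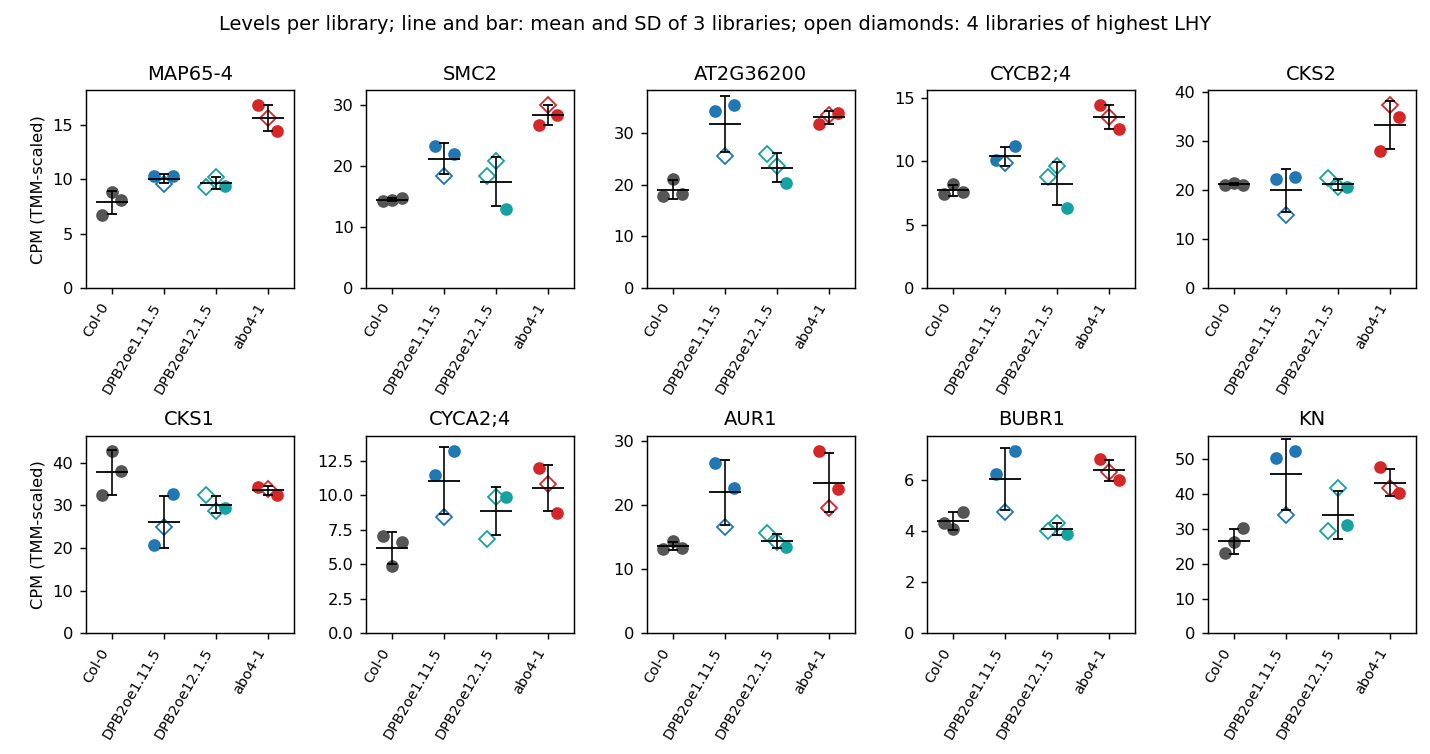
CPM per library (points) for 10 genes in the 4 genotypes, with the mean (line) and SD (bar) of 3 libraries; open diamonds are the 4 high-LHY libraries. MAP65-4, SMC2, CYCB2;4 and CKS2 have all 3 abo4-1 libraries above every other library. In DPB2oe1.11.5 the open diamond is the lowest point for MAP65-4, SMC2, AT2G36200, CYCB2;4, CKS2, CYCA2;4, AUR1, BUBR1 and KN. In DPB2oe12.1.5 both open diamonds lie above the filled point for SMC2, AT2G36200, CYCB2;4, AUR1 and BUBR1. Both lie below it for CYCA2;4 and on either side of it for the other genes. In abo4-1 the open diamond is the lowest point only for AUR1.

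The other members of abo4-1 did not pass the test, and are given by role. The remaining B2 cyclin genes had log2 fold changes of 0.47 to 1.25, of which CYCB2;1 had the largest, at 1.25 ± 0.29 (adjusted p = 0.0807), from 1.66 ± 0.0940 to 4.01 ± 0.886 CPM. The 5 A-type cyclin genes, whose products act from S phase to early mitosis, ranged from 0.40 to 0.99. CYCA2;4, which had the lowest p of the A-type genes over the comparisons, measured 7.07, 4.89 and 6.59 CPM in Col-0 and 12.01, 10.8 and 8.72 CPM in abo4-1, a log2 fold change of 0.76 ± 0.22 (adjusted p = 0.230) with no overlap.

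Among the Aurora kinase genes, AUR1, which acts on the spindle and the cell plate, was at 13.1, 14.4 and 13.4 CPM in Col-0 and at 28.6, 19.6 and 22.6 CPM in abo4-1. The abo4-1 libraries differed among themselves and all lay above Col-0, and the log2 fold change of 0.79 ± 0.18 did not pass (adjusted p = 0.0823). AUR1 and AUR2 are close copies, so their shares are uncertain. AUR2 had 0.65 ± 0.21, the centromeric kinase gene AUR3 0.42 ± 0.22, and TPX2, whose product activates Aurora kinase on the spindle, 0.17 ± 0.18.

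The spindle checkpoint genes BUBR1 and MAD2, which delay anaphase, had log2 fold changes of 0.53 ± 0.19 (adjusted p = 0.402) and 0.45 ± 0.27 (adjusted p = 0.758). BUBR1 measured 4.35, 4.11 and 4.78 CPM in Col-0 and 6.84, 6.34 and 6.005 CPM in abo4-1, without overlap. The other condensin genes were CAP-C at 0.55 ± 0.16, AT3G57060 at 0.57 ± 0.15 and EMB2656 at 0.78 ± 0.20. With SMC2 and ATSMC2, all 5 condensin genes had an unadjusted p under 0.05 and no overlap with Col-0.

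Of the 5 spindle motor and microtubule genes, all lay above Col-0 in every abo4-1 library. ATK5, a kinesin that moves to microtubule minus ends and focuses spindle poles, had a log2 fold change of 0.63 ± 0.18, AT4G21820, annotated as a calmodulin-binding protein, 0.78 ± 0.22, and EDE1, a microtubule-associated protein, 0.37 ± 0.18. None of these 3 was called. The 8 phragmoplast genes ranged from 0.27 for the kinesin gene PAKRP1 to 0.71 for KN, with a median of 0.49 and 0 called by edgeR or DESeq2, although 6 had an unadjusted p under 0.05 and 7 did not overlap Col-0. KN, whose protein is the syntaxin of the cell plate, was at 22.9, 26.1 and 30.2 CPM in Col-0 and 47.8, 41.6 and 40.4 CPM in abo4-1, with a log2 fold change of 0.71 ± 0.19 (adjusted p = 0.152).

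**Figure D4:**
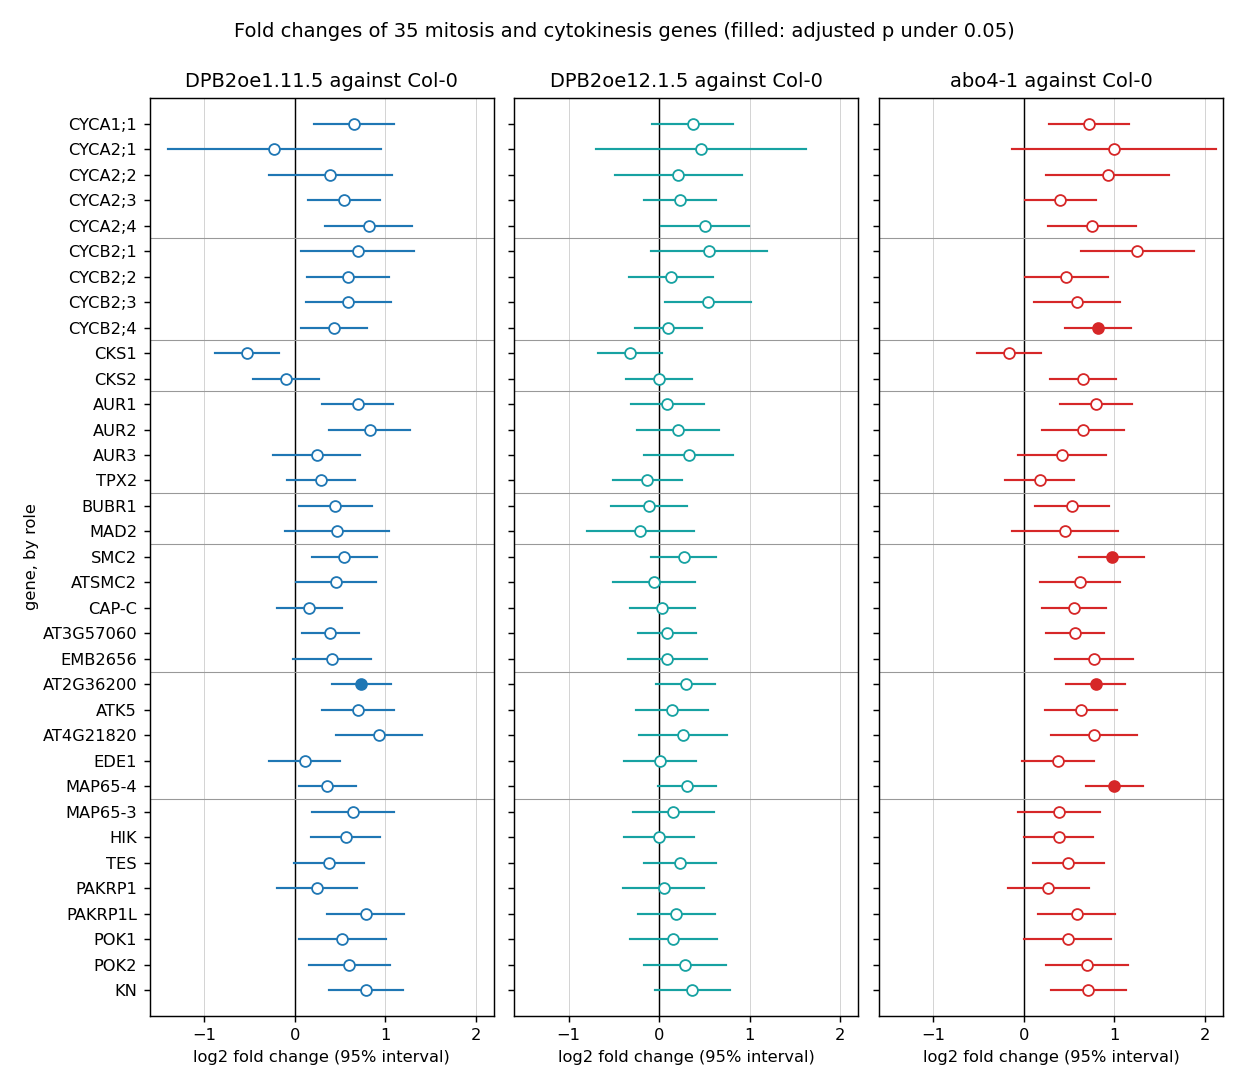
Log2 fold change against Col-0 (points) with its 95% interval (lines) for the 35 genes (rows, by role) in each mutant; filled points passed at an adjusted p under 0.05. In abo4-1, 34 points lie right of 0 and 4 are filled, in DPB2oe1.11.5 32 lie right of 0 and 1 is filled, and in DPB2oe12.1.5 28 lie right of 0 and none is filled.

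DPB2oe1.11.5 against Col-0 compares 1 overexpressor line with wild type, so the excess of DPB2 and other features of the line cannot be told apart. Only AT2G36200 rose by the test (1 of 35 members, 2.86%; 0.176% of all loci were called higher), with a log2 fold change of 0.74 ± 0.15 (adjusted p = 0.0448). No member fell by edgeR (0.532% of all loci did) or DESeq2, and 1, CKS1, had a lower level at an unadjusted p under 0.05, against 8.78% of all loci. A higher level at an unadjusted p under 0.05 was found for 23 members (65.7%), against 6.14% of all loci, and 19 members (54.3%) lay above Col-0 without overlap, against 11% of all loci. The median log2 fold change was 0.53 over the members and 0.00 over all loci, with 32 members (91.4%) and 50.4% of all loci above 0.

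The single call depended on the libraries. It was lost without any 1 Col-0 library and without DPB2oe1.11.5 replicate 1 or 3 (adjusted p 0.0923 to 0.220). Leaving out DPB2oe1.11.5 replicate 2, the high-LHY library, raised the count to 9 members, which added CYCA2;4, AUR1, AUR2, ATK5, AT4G21820, MAP65-3, PAKRP1L and KN. Without all 4 high-LHY libraries, a setting added after the data were seen, 14 members were called, and DESeq2 on all libraries called 8. Calls over all loci rose as well, from 141 to 286 without replicate 2, 925 without the high-LHY libraries and 601 by DESeq2. The part of the clock difference in these counts was not tested.

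By role, the spindle motor and microtubule genes had log2 fold changes in DPB2oe1.11.5 from 0.11 for EDE1 to 0.93 ± 0.22 for AT4G21820 (adjusted p = 0.0789), with a median of 0.70. AT4G21820 measured 5.11, 4.50 and 4.99 CPM in Col-0 and 9.10, 6.90 and 12.1 CPM in DPB2oe1.11.5, where replicate 2 was lowest and all 3 lay above Col-0. Among the phragmoplast genes, KN had 0.79 ± 0.19 (adjusted p = 0.0849) and PAKRP1L, a kinesin of the phragmoplast midzone, 0.79 ± 0.20 (adjusted p = 0.0929). KN stood at 50.4, 34.0 and 52.4 CPM in DPB2oe1.11.5, so its libraries of low LHY, replicates 1 and 3, were higher than every abo4-1 library.

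AUR1 was at 26.7, 16.7 and 22.8 CPM in DPB2oe1.11.5, with replicate 2 lowest and all above Col-0, and its log2 fold change was 0.70 ± 0.18 (adjusted p = 0.105). AUR2 had 0.83 ± 0.21 (adjusted p = 0.0911). CYCA2;4 was at 11.5, 8.43 and 13.2 CPM and had 0.82 ± 0.22 (adjusted p = 0.114). The 4 B2 cyclin genes lay between 0.43 and 0.70, the 5 condensin genes between 0.16 and 0.55, and the checkpoint genes BUBR1 and MAD2 at 0.45 and 0.47. BUBR1 was read at 6.27, 4.74 and 7.17 CPM, with replicate 2 inside the Col-0 range. MAP65-4 had 0.36 ± 0.15 (adjusted p = 0.263).

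In DPB2oe12.1.5 against Col-0, the second line of the same kind, 0 of 35 members were called higher by edgeR or by DESeq2, against 0.201% of all loci higher by edgeR. At an unadjusted p under 0.05, 2 members were higher (5.71%), CYCB2;3 and CYCA2;4, which is below the 8.03% of all loci. None was lower by edgeR, DESeq2 or an unadjusted p under 0.05, against 0.226% of all loci by edgeR and 8.65% at an unadjusted p under 0.05. The groups did not overlap for 3 members (8.57%; 11.5% of all loci), CYCB2;3, MAP65-4 and AT4G21820. The median log2 fold change was 0.16, with 28 members (80%) and 49.9% of all loci above 0. MAP65-4 had 0.30 with a 95% interval of −0.02 to 0.62, and KN 0.37 with −0.04 to 0.78, at 29.3, 41.8 and 31.0 CPM. CYCA2;4 stood at 6.83, 9.86 and 9.91 CPM, AUR1 at 15.7, 14.3 and 13.5 CPM and BUBR1 at 4.02, 4.35 and 3.90 CPM. These 3 genes overlapped Col-0.

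All comparisons with Col-0 share the same 3 Col-0 libraries, so the direct contrasts between mutants were read separately. Of the members, 0 were called between DPB2oe12.1.5 and DPB2oe1.11.5 in either direction by edgeR or DESeq2, against 0.0301% of all loci by edgeR, and 13 were lower in DPB2oe12.1.5 at an unadjusted p under 0.05 (37.1%; 8.60% of all loci). The members' median was −0.32. The lowest value was that of MAD2, at −0.68 ± 0.27 (adjusted p = 0.223), and AUR1 had −0.61 ± 0.18 (adjusted p = 0.138) without overlap. This comparison turned on 1 library: without DPB2oe1.11.5 replicate 2, 10 members were lower, among them AUR1, AUR2, BUBR1, MAD2 and AT2G36200, and without the 4 high-LHY libraries 6 were. Over all loci, calls in either direction went from 6 to 1119 and 1042 in these runs.

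Between abo4-1 and DPB2oe1.11.5, 2 of 35 members were higher in abo4-1 (5.71%; 1.28% of all loci), MAP65-4 and CKS2. MAP65-4 differed by a log2 fold change of 0.64 ± 0.15 (adjusted p = 0.0462). CKS2 (AT2G27970, chr2:11912151-11913425), a docking subunit of cyclin-dependent kinases, was at 21.0, 21.4 and 21.0 CPM in Col-0, 27.8, 37.2 and 34.8 CPM in abo4-1, 22.4, 20.5 and 20.5 CPM in DPB2oe12.1.5, and 22.3, 14.8 and 22.5 CPM in DPB2oe1.11.5. All abo4-1 libraries were above the other 9, and DPB2oe1.11.5 replicate 2 was the lowest of all. Its log2 fold change was 0.74 ± 0.17 (adjusted p = 0.0444).

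Both calls were lost when any 1 of the 6 libraries was left out (adjusted p 0.0545 to 0.186) and without the 4 high-LHY libraries (0.112 for CKS2 and 0.104 for MAP65-4). With the replicate number as a block, which the libraries of these 2 genotypes share by the rule used, MAP65-4 was lost (adjusted p = 0.0587) and CKS2 was kept (0.0497), which leaves 1 member. None was lower by edgeR (0.361% of all loci), DESeq2 or an unadjusted p under 0.05 (6.34%). The other way, 7 members were higher at an unadjusted p under 0.05 (20%; 10% of all loci), and the median was 0.08. AT2G36200 did not pass, with a difference of 0.06 and a 95% interval of −0.26 to 0.38.

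Between abo4-1 and DPB2oe12.1.5, 0 members were called by edgeR (0.713% of all loci were, in either direction) and 5 were by DESeq2: CYCB2;4, CKS2, AUR1, SMC2 and MAP65-4. Over all loci DESeq2 called 609 and edgeR 142. At an unadjusted p under 0.05, 17 were higher in abo4-1 (48.6%; 8.01% of all loci) and 0 lower (6.89%). All 35 log2 fold changes were above 0 (51.2% of all loci), with a median of 0.45, and MAP65-4 had 0.70 ± 0.15 (adjusted p = 0.0505). The groups did not overlap for 19 members (54.3%; 10.3% of all loci), which include all 5 condensin genes and all 5 spindle motor and microtubule genes.

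The CKS genes lie side by side on chromosome 2, and CKS1 was the member of lowest log2 fold change in every mutant against Col-0. CKS1 (AT2G27960, chr2:11910569-11911802), chosen for mention after its values were seen, measured 32.4, 42.9 and 38.0 CPM in Col-0, 34.4, 33.7 and 32.4 CPM in abo4-1, 32.4, 28.6 and 29.4 CPM in DPB2oe12.1.5, and 20.8, 24.9 and 32.7 CPM in DPB2oe1.11.5. Only 1 DPB2oe1.11.5 library reached the Col-0 range, and abo4-1 overlapped Col-0. Its log2 fold changes were −0.17 ± 0.16 in abo4-1, −0.32 ± 0.16 in DPB2oe12.1.5 and −0.53 ± 0.16 (adjusted p = 0.150) in DPB2oe1.11.5, none called. In counts, CKS2 over CKS1 was 0.568 ± 0.0758 (SD, n = 3) in Col-0, 0.994 ± 0.162 in abo4-1, 0.702 ± 0.0118 in DPB2oe12.1.5 and 0.784 ± 0.253 in DPB2oe1.11.5. The ranges of abo4-1 (0.808 to 1.10) and DPB2oe12.1.5 (0.692 to 0.715) both lay above the Col-0 range of 0.5 to 0.649. The DPB2oe1.11.5 range of 0.592 to 1.07 overlapped those of Col-0 and abo4-1. As near-identical genes they lose the reads they share, so this ratio is uncertain.

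Log2 fold changes were also set beside the AACGG core. In abo4-1 the median log2 fold change was 0.59 over the 19 members with a core and 0.62 over the 16 without, in DPB2oe1.11.5 0.59 and 0.44, and in DPB2oe12.1.5 0.20 and 0.12. Of the 4 members called in abo4-1, MAP65-4 holds 3 cores and SMC2 1, at 227 bases before its start, while CYCB2;4 and AT2G36200 hold none. The median differences were not tested.

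Genes outside the set give the surroundings of these values. Of 10 genes for cyclin-dependent kinases, B1 cyclins and the B3 cyclin CYCB3;1, 5 rose in abo4-1 by edgeR, led by CYCB1;1 (log2 fold change 1.15 ± 0.17, adjusted p = 0.00507) and CDKB2;1 (0.90 ± 0.15, adjusted p = 0.0120), with CYCB1;4, CDKB1;2 and, outside the naming rule, CDKB1;1. The list median was 0.80. In the overexpressor lines edgeR called 0 of the 10. There, DESeq2 called CYCB1;1 in DPB2oe1.11.5, where 4 had an unadjusted p under 0.05, and 0 in DPB2oe12.1.5, where 1 did. Of 25 other mitosis and cytokinesis genes, only AT4G15890 rose in abo4-1 (1.01 ± 0.21, adjusted p = 0.0431), with 14 at an unadjusted p under 0.05 and 7 called by DESeq2. In DPB2oe1.11.5 edgeR called 0 of the 25, DESeq2 1, and 8 had an unadjusted p under 0.05, and in DPB2oe12.1.5 these counts were 0, 0 and 4. All genes of these 2 lists with an unadjusted p under 0.05 were higher than in Col-0. Of all loci, 4.65% in abo4-1, 8.03% in DPB2oe12.1.5 and 6.14% in DPB2oe1.11.5 were higher at that p, and 8.13%, 16.7% and 14.9% had that p in either direction.

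Of 8 regulators of the G2/M step, WEE1, a kinase that inhibits cyclin-dependent kinases, was called in abo4-1 (1.24 ± 0.25, adjusted p = 0.0427), where 5 had an unadjusted p under 0.05 and DESeq2 called 3. In the overexpressor lines 0 of these 8 were called by edgeR or DESeq2, with 4 and 2 at an unadjusted p under 0.05. MYB3R4, an activator that binds the mitosis-specific activator element, chosen for mention after its values were seen, did not pass edgeR's test in abo4-1 (0.84 ± 0.18, adjusted p = 0.0522) and was called by DESeq2. Of 12 S-phase genes, the helicase gene CDC45 (1.07 ± 0.17, adjusted p = 0.00931) and TSO2 (2.83 ± 0.25, adjusted p = 6.14e-05), a subunit of ribonucleotide reductase, rose in abo4-1. TSO2 also rose in DPB2oe12.1.5 (1.32 ± 0.24, adjusted p = 0.0305). In DPB2oe1.11.5 edgeR called 0 S-phase genes, and 7 had an unadjusted p under 0.05. DESeq2 called 2 there as higher, CDC45 and TSO2. TSO2 was at 139, 218 and 132 CPM in DPB2oe1.11.5 against 75.3, 92.1 and 89.8 CPM in Col-0. DNA damage markers rose in all mutants, 7 of 7 in abo4-1, 6 in DPB2oe12.1.5 and 5 in DPB2oe1.11.5, with BRCA1, TK1a, PARP2 and SMR7 of lowest p in abo4-1 at log2 fold changes of 2.27, 2.84, 2.61 and 4.39. Their summed level of 92.6 to 108 CPM in DPB2oe12.1.5 was above the 75.9 to 85.7 CPM of DPB2oe1.11.5.

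Tissue markers were read in the same libraries. Of the 11 meristem markers, 9 passed the filter and WUS and CLV3 did not. The 11 summed to 117 to 124 CPM in Col-0, 104 to 137 CPM in abo4-1, 94.8 to 98.4 CPM in DPB2oe12.1.5 and 87.5 to 119 CPM in DPB2oe1.11.5. Against Col-0, edgeR called 0 of 9 in any mutant. In each mutant 1 had an unadjusted p under 0.05, higher in abo4-1 and lower in both overexpressor lines. DESeq2 called 1, STM, in abo4-1, at 4.78, 5.02 and 6.39 CPM against 2.94, 2.84 and 2.87 CPM in Col-0. Between abo4-1 and DPB2oe1.11.5, edgeR called STM as higher in abo4-1. CLV1 made up most of the meristem sum in Col-0, at a mean of 71.1 CPM against 45.7 CPM in DPB2oe12.1.5. In that line the median log2 fold change of the 9 tested meristem markers was 0.09. The 5 leaf and cotyledon markers summed to 79134 to 87661 CPM in Col-0 and 69126 to 82486 CPM in abo4-1. The sum was 42224 to 65043 CPM for DPB2oe1.11.5 libraries and 57003 to 79879 CPM for those of DPB2oe12.1.5. By edgeR 0 were called, and by DESeq2 2 were lower in DPB2oe1.11.5. At an unadjusted p under 0.05, abo4-1 had 0, DPB2oe1.11.5 had 2 and DPB2oe12.1.5 had 1. LHCB1.3 and RBCS1A made up most of this sum in Col-0, at means of 38523 and 25517 CPM. The mean of LHCA3 was also lower in every mutant. RCA went the other way, from a Col-0 mean of 8718 CPM to higher means in every mutant. GAPB was above its Col-0 mean only in DPB2oe12.1.5 (2932 against 2630 CPM). Root markers summed to 22.6 to 26.4 CPM in Col-0, 19.1 to 24.6 CPM in abo4-1, 11.2 to 12.6 CPM in DPB2oe1.11.5 and 19.9 to 39.2 CPM in DPB2oe12.1.5, and in DPB2oe1.11.5 edgeR called 1 of 5, EXPA7, as lower (−1.94 ± 0.39, adjusted p = 0.0409). There, DESeq2 called 3 of the 5 root markers lower, EXPA7, EXPA18 and CASP1, and 3 were lower at an unadjusted p under 0.05. The 5 seed storage markers, of which 4 passed the filter, summed to 0.881 to 1.56 CPM in Col-0. The abo4-1 libraries held 1.46 to 4.11 CPM, with the high-LHY library lowest. Those of DPB2oe1.11.5 held 0.945 to 7.91 CPM, with the high-LHY library highest. Within DPB2oe12.1.5 the high-LHY libraries reached 21.6 and 20.7 CPM, while replicate 3 stayed at 4.06 CPM. In that line EM6 (2.57 ± 0.38, adjusted p = 0.0128) and PAP85 (3.41 ± 0.60, adjusted p = 0.0291) rose. The part of these tissue differences in the levels of the 35 genes was not tested.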

How the data were processed

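Whole-seedling mRNA of 12 libraries was sequenced as stranded single-end reads sized to 230 bp on an Ion Torrent Proton, per the labels' protocols. Per the file headers, which name sam2pkm, the authors deposited unscaled read counts of each locus after removing reads with several equal best hits, which lowers the counts of near-identical genes. The submitters' processing notes name TAIR10 as the genome; the aligner is not given in the sources used here. Loci were tested with edgeR 4.0.16 in R 4.3.3 (filterByExpr by group, TMM, 1 robust quasi-likelihood model over all 12 libraries, 6 contrasts, Benjamini-Hochberg over 19924 loci, called at an adjusted p under 0.05, no fold threshold). Fold changes are log2 values with the SE of the model, and the common biological coefficient of variation was 0.226. The scripts were tested on simulated data with 200 changed loci per comparison. Of these, 40.5% to 51% were recovered at a log2 change of 1 and 92% to 97% at a log2 change of 2. Smaller changes were not simulated. DESeq2 1.42.0, RLE and upper-quartile scaling, no filter, 2-group fits, the replicate block and leaving out each library were the other settings tried, and leaving out the 4 high-LHY libraries or fitting LHY as a covariate was added after the data were seen.

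Replicate numbers were taken to pair libraries where same-numbered libraries deviated from their group means with a correlation over 0.1 for all 3 numbers. This held for abo4-1 with DPB2oe1.11.5 (0.173, 0.620 and 0.432), from the data and not the labels, and for no other pair of genotypes. In both genotypes replicate 2 was the only high-LHY library, at 217 CPM of LHY in DPB2oe1.11.5 and 173 CPM in abo4-1. A pairing by replicate number and this clock difference cannot be told apart. Coordinates and promoter windows come from RefSeq TAIR10.1, to which all 35 members matched by locus identifier; its gene starts may differ from the authors' annotation. The members and the other gene lists were chosen with earlier results of these data known. Values in every library are given for each member called in at least 1 comparison and for the member of lowest p-value in each role with no call, and from the other lists up to 4 called genes of lowest p-value are named.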

Additional observations from a re-analysis of the deposited data

Results flagged for a closer look

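Effects of the mutants against Col-0 differed for 2 members by the direct edgeR contrast of abo4-1 with DPB2oe1.11.5. For CKS2 the log2 difference was 0.74 (adjusted p = 0.0444), with 3 of 3 abo4-1 libraries above all 3 of DPB2oe1.11.5. For MAP65-4 it was 0.64 (adjusted p = 0.0462), also with 3 of 3 above. As given with these genes, neither call held when any 1 of the 6 libraries was left out.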

How the results depend on the processing

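Of the 35 members, those called moved most in DPB2oe1.11.5 against Col-0: from 1 to 8 with DESeq2, 8 with LHY as a covariate, 5 with no filter, 14 without the 4 high-LHY libraries, 0 with the replicate block and 0 in the 2-group fit. Leaving out 1 library gave 0 to 9. In abo4-1 against Col-0 the 4 became 7 with DESeq2 and 1 to 2 with 1 library left out. With no filter, and without the high-LHY libraries, the count stayed at 4 but 3 were shared, since AUR1 was called and CYCB2;4 was not. In abo4-1 against DPB2oe1.11.5 the 2 became 0 with upper-quartile scaling, 1 with no filter, 1 with the replicate block, 0 in the 2-group fit, 0 without the high-LHY libraries and 0 with any 1 library left out. In abo4-1 against DPB2oe12.1.5 the 0 became 5 with DESeq2 and 1 without the high-LHY libraries. Members lower in DPB2oe12.1.5 than in DPB2oe1.11.5 went from 0 to 6 without the high-LHY libraries and 0 to 10 with 1 library left out. Without the high-LHY libraries DPB2oe12.1.5 has 1 library, whose spread is taken to equal that of the others. Among the calls of single members, MAP65-4 in abo4-1 against Col-0 held in all 14 alternatives, with log2 fold changes of 0.89 to 1.08, and the sign of no called member reversed. The block changed no call of a member beside those given, except that CYCB2;4 in abo4-1 was lost (adjusted p = 0.0651).

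All loci called were 141 in DPB2oe1.11.5 against Col-0, and 215 with no filter, 601 with DESeq2, 221 in the 2-group fit, 925 without the high-LHY libraries, 567 with the LHY covariate and 21 to 286 with 1 library left out. For DPB2oe12.1.5 against Col-0 they were 85, and 180 with no filter, 152 with the replicate block, 704 with DESeq2, 47 without the high-LHY libraries and 15 to 95 with 1 left out. For abo4-1 against Col-0 they were 156, and 302 with DESeq2, 99 in the 2-group fit and 65 to 94 with 1 left out. For DPB2oe12.1.5 against DPB2oe1.11.5 they were 6, and 115 with no filter, 17 with the replicate block, 645 with DESeq2, 1 in the 2-group fit, 1042 without the high-LHY libraries, 152 with the LHY covariate and 3 to 1119 with 1 left out. For abo4-1 against DPB2oe1.11.5 they were 327, and 895 with DESeq2, 103 in the 2-group fit, 1065 without the high-LHY libraries, 976 with the LHY covariate and 79 to 572 with 1 left out. For abo4-1 against DPB2oe12.1.5 they were 142, and 222 with no filter, 609 with DESeq2, 43 in the 2-group fit, 74 without the high-LHY libraries, 217 with the LHY covariate and 49 to 207 with 1 left out. Depth limited CYCA2;1 most, with 6 counts in its lowest library. Beyond fewer libraries in the runs that leave some out, the cause was not tested.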

Other observations

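With the LHY level as a covariate beside the genotype means, 27 of the 35 members had a negative coefficient, with a median of −0.06 on the log2 scale per SD of log2 LHY, against −0.0026 over all loci. The share of all loci with a negative coefficient was not computed. The LHY term passed for 1 member, the checkpoint gene MAD2 (−0.31, adjusted p = 0.0221), and for 2408 of 19924 loci (12.1%), in edgeR's quasi-likelihood test with Benjamini-Hochberg adjustment. The members' summed level was lower in the high-LHY library of DPB2oe1.11.5 (454 against 617 and 646 CPM). In DPB2oe12.1.5 it was higher in the high-LHY libraries (480 and 468 against 406 CPM), and in abo4-1 it was about equal (618 against 617 and 601 CPM). MAD2 measured 9.25 CPM in DPB2oe1.11.5 replicate 2 against 19.8 and 13.5 CPM in replicates 1 and 3, and 6.59 and 8.84 CPM in the high-LHY libraries of DPB2oe12.1.5 against 11.2 CPM in replicate 3.

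The 8 bases AACGGCTA, searched on both strands after the B2 cyclin sequences were seen, occur in the 250 bases before 7 members, CYCB2;1, CYCB2;2, CYCB2;3, TPX2, MAD2, HIK and POK2, and in 219 of 26707 windows (0.820%). They contain the 5-base core, so the matches are a subset of those given for AACGG.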
